A study of Mus musculus with 20 samples.

Results

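Acyl-CoA thioesterases split a fatty acyl-CoA into the free fatty acid and coenzyme A (CoA). The 8 members described here were the rows of the deposited tables with the symbols Acot1, Acot2, Acot4, Acot7, Acot8, Acot9, Acot11 and Acot13, out of 25052 genes listed. Their transcript levels were measured in frozen left ventricle of male mice, 20 in all, with 1 poly(A) library per mouse and 5 mice for each pairing of genotype and diet. The mice called iKO here carried floxed alleles of Acacb, the gene of acetyl-CoA carboxylase 2 (ACC2), together with the MerCreMer transgene (MCM), a Cre recombinase that acts after tamoxifen. The mice called WT in the labels were taken to be those that the treatment protocol names Con. Those carried the same floxed alleles without the transgene. Both genotypes were 8 weeks old when they received tamoxifen, at 20 mg/kg on 5 days. The diets began 4 weeks later and lasted 16 weeks. They were chow and the high-fat diet D12492 of Research Diets, written HFD here. The promoter that drives the transgene is not given in the sources used here, and no group carried MCM without floxed alleles, so that loss of ACC2 and presence of the transgene cannot be told apart.

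ACC2 makes malonyl-CoA, which inhibits the entry of long-chain fatty acids into mitochondria for oxidation. Acyl-CoA synthetases spend energy to attach CoA to a fatty acid, and thioesterases reverse that step, which frees CoA where acyl-CoA would otherwise build up. The enzymes belong to unrelated protein families that share the reaction. Acot1, Acot2 and Acot4 are close relatives made by gene duplication, while Acot7, Acot8, Acot9, Acot11 and Acot13 do not belong to that group. They work in the cytosol, in mitochondria or in peroxisomes. Acot1 and Acot2 are known as target genes of PPAR-alpha, the nuclear receptor that responds to fatty acids and switches on oxidation genes in heart and liver.

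The values are FPKM, read fragments scaled by transcript length and by the number of mapped reads, so levels of different genes can be set side by side per length. Folds were tested with limma on log2(FPKM + 1) over the 12775 genes that reached 0.5 FPKM in 5 libraries or more, and a gene was called where its p, adjusted by Benjamini-Hochberg over all these genes, was below 0.05. All 8 members were tested. The number of reads assigned to genes was estimated from the steps between low FPKM at 12.5 to 31.9 M per library, with a median of 22.4 M. Acacb itself was at 38.6 FPKM ± 1.57 (SD, n = 5) in WT chow and 8.95 ± 0.464 in iKO chow libraries, and at 37.8 ± 2.93 and 10.6 ± 1.13 on HFD, with no overlap between genotypes. The summed level of 6 cardiomyocyte markers was at least 16084 FPKM in every library, and that of 4 white adipocyte markers at most 1.1 FPKM. Atrial markers were at 340 FPKM in WT chow library RT1 and 68 in iKO chow library RT4, and at most 7.68 in the rest. Libraries RT1 to RT10 were all from chow and RT11 to RT20 all from HFD, so diet and library number are confounded and cannot be told apart.

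The members called in at least 1 comparison lie together. Acot2 (chr12:83987861-83993873 on GRCm38), Acot1 (chr12:84009490-84018371) and Acot4 (chr12:84038379-84048601) follow each other on the plus strand, with Acot3 and Acot6 further along. Acot1 is the cytosolic enzyme and Acot2 its counterpart in the mitochondrial matrix, while Acot4 acts in peroxisomes. The coding sequences of Acot1 and Acot2 were 95.3% identical over 1236 aligned columns of the annotated transcripts, against 76.5% for Acot1 with Acot4. The longest stretch common to both, 273 nt (coding positions 887 to 1159 of Acot1 and 1010 to 1282 of Acot2), is shown because a read from inside it cannot be placed on either gene by its letters.
Acot1 and Acot2, shared stretch: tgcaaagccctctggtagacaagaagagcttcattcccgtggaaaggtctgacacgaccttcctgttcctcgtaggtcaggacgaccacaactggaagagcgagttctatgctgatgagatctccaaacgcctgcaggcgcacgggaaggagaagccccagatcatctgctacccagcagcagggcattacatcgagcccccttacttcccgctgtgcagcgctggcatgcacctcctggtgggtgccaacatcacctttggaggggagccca
Of the windows of 100 nt without gaps in the aligned coding sequences, the one just before that stretch holds the most differences, 14. They are printed in capitals, and the window is shown because reads from there can be told apart.
Acot1, differing window: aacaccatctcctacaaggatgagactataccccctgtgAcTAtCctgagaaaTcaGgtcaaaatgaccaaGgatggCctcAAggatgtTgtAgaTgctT
Acot2, differing window: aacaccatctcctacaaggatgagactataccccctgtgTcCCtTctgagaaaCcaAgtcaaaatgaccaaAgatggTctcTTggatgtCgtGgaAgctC
Of all stretches of 100 nt, the read length of the libraries, 16.5% of the Acot1 transcript and 17.1% of the Acot2 transcript occur letter for letter in the other, and 21.7% and 22.5% do so when 2 mismatches are allowed. The submitters' notes name RSEM, but no source used here says how such reads were divided between the genes. The split between Acot1 and Acot2 is thus uncertain, and their sum is given beside them.

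Acot1 was lower in iKO than in WT hearts on chow and higher on HFD than on chow in both genotypes. On chow the 5 WT libraries held 6.77, 8.52, 7.57, 5.88 and 7.52 FPKM of Acot1. The 5 iKO libraries on chow held 3.07, 3.66, 2.04, 2.45 and 3.99. The highest iKO library thus lay under the lowest WT library. On HFD the WT libraries held 16.69, 14.85, 16.01, 18.96 and 17.74 FPKM of Acot1. The iKO libraries on HFD held 16.16, 11.82, 12.87, 16.42 and 17.47. The genotypes overlapped on HFD, and every HFD library of either genotype was above every chow library.

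Acot2, the mitochondrial matrix enzyme, followed the same order at a higher level. On chow the WT libraries held 19.68, 25.12, 24.12, 20.78 and 20.91 FPKM of Acot2. The iKO libraries on chow held 15.16, 13.46, 13.97, 13.72 and 16.37, again all below WT. On HFD the WT libraries held 37.56, 34.61, 35.35, 43.67 and 36.62 FPKM. The iKO libraries on HFD held 37.92, 31.32, 33.16, 34.78 and 41.4, and overlapped with WT. As with Acot1, no chow library reached the lowest HFD library.

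**Figure D1:**
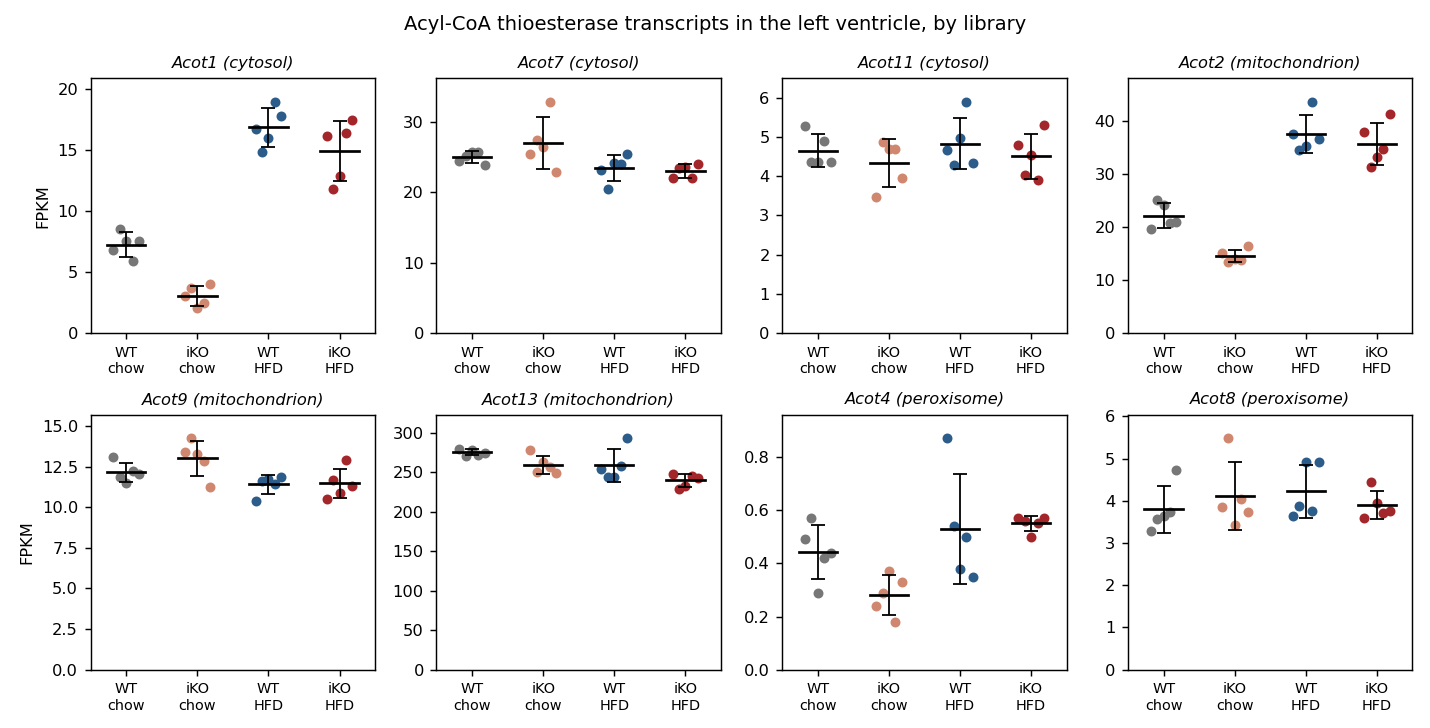
FPKM of each member (vertical axis, from 0) in the 4 groups (horizontal axis), with 1 point per library and the mean and SD over 5 libraries in black. Acot1 and Acot2 are lowest in iKO on chow and highest on HFD, Acot4 lies under 1 FPKM throughout, and the groups of Acot7, Acot8, Acot9, Acot11 and Acot13 lie at similar heights.

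For the comparison of genotypes on chow, which asks how loss of ACC2 changed the transcripts of mice on a normal diet, 2 of the 8 members were called, both lower. The share of all tested genes called lower there was 0.720%. Acot1 fell from 7.25 FPKM ± 0.987 (SD, n = 5) to 3.04 ± 0.812, to 0.419 of the WT mean, a log2 fold change of -1.05 (SE 0.13, adjusted p = 3.19e-05). Acot2 fell from 22.1 ± 2.36 to 14.5 ± 1.21 FPKM, to 0.657 of the WT mean, a log2 fold change of -0.57 (SE 0.08, adjusted p = 0.000194). These were also the members whose iKO libraries all lay below WT, which 1.11% of all tested genes did. The median log2 fold change was -0.086 over the 8 members and 0.05 over all tested genes. Markers of fibroblasts summed to 279 to 337 FPKM in WT and 317 to 610 in iKO on chow, with none of 4 called, and their part in the result was not tested. Cardiomyocyte markers summed to 20964 to 22198 FPKM in WT and 20568 to 24169 in iKO on chow, with none of 6 called. In RNA of whole tissue, fewer cells of a type and less RNA per cell cannot be told apart.

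On HFD none of the 8 members was called between the genotypes by limma, against 0.172% of all tested genes in either direction. At an unadjusted p below 0.05 there was 1, Acot13, and all tested genes were not counted at that threshold. The median log2 fold change was -0.077 over the members and 0.063 over all tested genes. The Acot1 means were 16.8 FPKM ± 1.58 in WT and 14.9 ± 2.45 in iKO (SD, n = 5), a log2 fold change of -0.17 with a 95% interval from -0.43 to 0.09. The Acot2 means were 37.6 ± 3.6 and 35.7 ± 4 FPKM, a log2 fold change of -0.073 with an interval from -0.24 to 0.09. Whether the genotype difference itself changed with the diet was tested by the interaction, which was 0.87 (SE 0.18) on the log2 scale for Acot1 and 0.50 (SE 0.11) for Acot2. Their adjusted p were 0.174 and 0.234, so neither was called, at unadjusted p of 7.48e-05 and 0.00022. None of the 8 members was called for the interaction by limma, against 0.0313% of all tested genes. At an unadjusted p below 0.05 there were 2, again without a count over all tested genes beside it.

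The comparison of diets asks how 16 weeks of fat-rich food changed the heart. In WT 2 of the 8 members were called, both higher on HFD, against 0.767% of all tested genes called higher. Acot1 rose to 2.32 times its chow mean, a log2 fold change of 1.12 (SE 0.13, adjusted p = 1.83e-05), and Acot2 to 1.7 times, a log2 fold change of 0.74 (SE 0.08, adjusted p = 9.08e-06). No other member had HFD libraries all above the chow libraries in WT, which 0.783% of all tested genes did. The median log2 fold change was 0.059 over the members and -0.084 over all tested genes. Of 6 cardiomyocyte markers, 5 were called lower on HFD in WT (median log2 fold change -0.19) and 3 in iKO, where 7.27% and 8.36% of all tested genes were called lower. Of 4 fibroblast markers 1 was called lower on HFD in iKO, with none in WT. Of 2 tested brown adipocyte markers 1 was called higher in iKO, where the list summed to 18.4 to 21.8 FPKM on chow and 23.6 to 30.6 on HFD, and none in WT. Most of that sum was 1 gene, Cidea, at 15.37 to 18.46 FPKM in iKO on chow and 19.94 to 26.45 on HFD. Ucp1 of that list was not analysed here. The part of these markers in the result was not tested.

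In iKO 3 of the 8 members were called on HFD against chow, all higher, while 1.65% of all tested genes were called higher. Acot1 rose from 3.04 to 14.9 FPKM, to 4.91 times its chow mean, a log2 fold change of 1.99 (SE 0.13, adjusted p = 1.21e-09). Acot2 rose from 14.5 to 35.7 FPKM, to 2.46 times, a log2 fold change of 1.24 (SE 0.08, adjusted p = 8.61e-10). Acot4 was the remaining one, from a much lower level. It reached 0.5 FPKM in 0 iKO chow and 5 iKO HFD libraries, so it could pass the filter by the group where it was high. Its call was kept in 21 of 29 alternatives. The median log2 fold change was -0.0021 over the members and -0.072 over all tested genes. These 3 were the members whose HFD libraries all lay above chow, which 1.39% of all tested genes did. With Acot1 and Acot2 added together, the sum was 29.4 FPKM ± 3.18 in WT and 17.6 ± 1.79 in iKO on chow, and 54.4 ± 5.03 and 50.7 ± 6.27 on HFD (SD, n = 5). The sum thus kept the order of the groups without the uncertain split. The diet comparisons share no libraries with each other, while each shares 1 group with each genotype comparison.

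**Figure D2:**
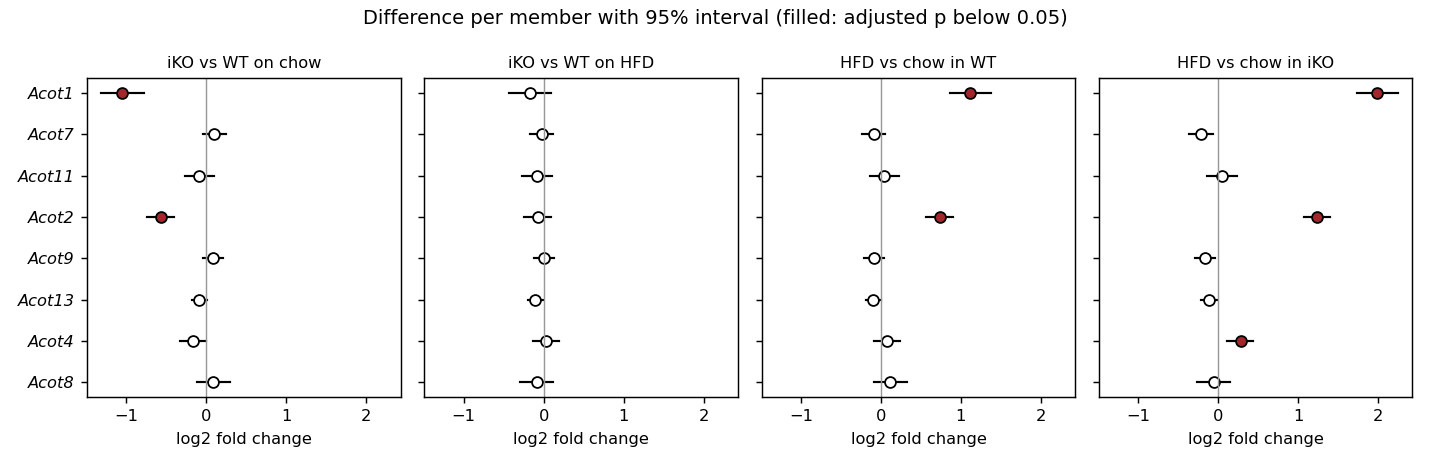
Log2 fold change of log2(FPKM + 1) per member (points) with its 95% interval (lines) in the 4 pairwise comparisons, where filled points have an adjusted p below 0.05. Acot1 and Acot2 stand left of 0 for iKO against WT on chow and right of 0 for HFD against chow in both genotypes, with Acot4 filled in the last panel alone.

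Acot1 changed by more than Acot2 on the log2 scale, and in 3 of the 4 pairwise comparisons that difference passed the test. How reads from the stretches common to both genes were divided is not known here. Its part in this difference was not tested. Within each library, log2(Acot1 + 1) less log2(Acot2 + 1) averaged -1.49 ± 0.12 in WT and -1.96 ± 0.26 in iKO on chow, and -1.11 ± 0.07 and -1.21 ± 0.12 on HFD (SD, n = 5). The iKO libraries on chow were 0.47 lower than WT (two-sided exact permutation test over mice, p = 0.0159, adjusted over 4 comparisons 0.0212), with overlapping groups. HFD libraries were higher than chow libraries by 0.38 in WT and by 0.75 in iKO, each with an exact p of 0.00794 and an adjusted p of 0.0159, and without overlap. That p is the smallest that the 252 arrangements of 5 against 5 can give. Between the genotypes on HFD the difference was -0.10 (exact p = 0.135, adjusted 0.135), and without iKO HFD library RT17 it was -0.14 at an adjusted p of 0.0159. The added 1 FPKM shrinks changes of the lower gene more than those of the higher one, and with 0.1 added instead the differences were -0.66 on chow, 0.45 for the diet in WT and 0.996 for the diet in iKO.

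**Figure D3:**
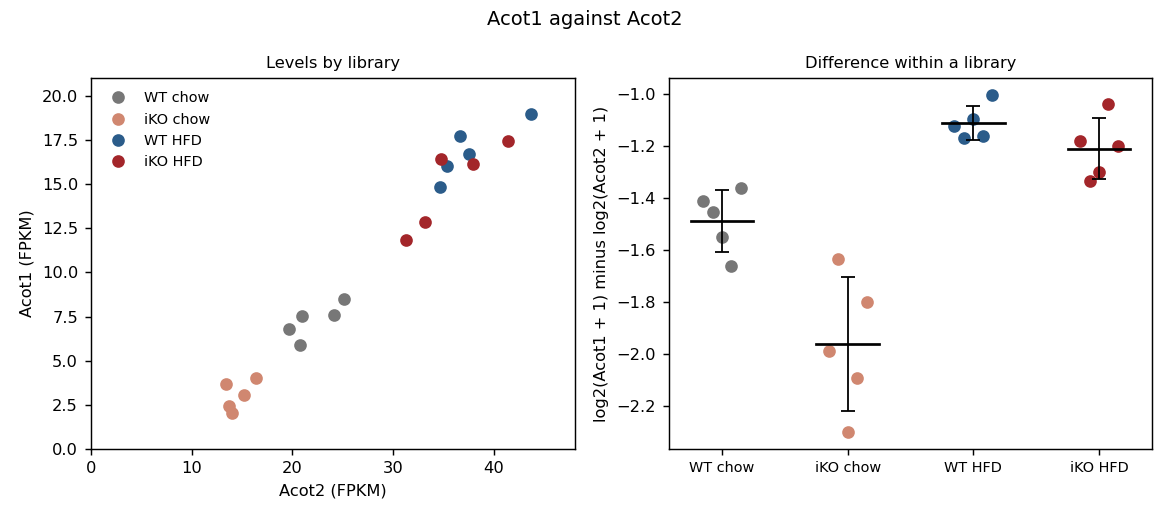
Left, Acot1 against Acot2 in FPKM, 1 point per library. Right, log2(Acot1 + 1) less log2(Acot2 + 1) per library by group, with mean and SD. The points run from the iKO chow libraries at the lower left to the HFD libraries at the upper right, and the right panel is lowest in iKO on chow at -1.96.

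Acot4 is a peroxisomal enzyme with a preference for dicarboxylic acyl-CoA such as succinyl-CoA. Its level was the lowest of the 8 in every group. The WT libraries on chow held 0.49, 0.57, 0.29, 0.42 and 0.44 FPKM of Acot4. The iKO libraries on chow held 0.24, 0.29, 0.37, 0.18 and 0.33. The iKO groups did not overlap between the diets, since the iKO libraries on HFD held 0.57, 0.56, 0.5, 0.55 and 0.57. The WT libraries on HFD held 0.87, 0.54, 0.38, 0.5 and 0.35, and overlapped with each of the other groups. In iKO the log2 fold change on HFD was 0.28 (SE 0.079, adjusted p = 0.0288), a ratio of means of 1.95. In WT it was 0.077 (SE 0.079, adjusted p = 0.56), and between genotypes on chow -0.17 (SE 0.079, adjusted p = 0.349). Acot4 passed the filter on low values through 1 WT chow library, 3 WT HFD libraries and all 5 iKO HFD libraries, so it could enter the test by the group where it was high. The call was lost without library RT2, RT4, RT7, RT11, RT13 or RT20, each left out alone, with adjusted p from 0.0509 to 0.0755, without RT1 and RT4 together at 0.0585, and with library quality weights at 0.0761. In its annotated transcript with the longest coding sequence, 0.36% of the stretches of 100 nt occur in another gene of the cluster. When 2 mismatches are allowed, 4.95% do so. Acot1 and Acot2 are far more abundant than Acot4, and the part of reads from such stretches in its values was not tested. Acot4 is also overlapped by the annotated coding gene Gm49366 on its own strand over 9667 bases, which was not analysed here, and by the antisense gene 4732463B04Rik over 9133 bases, listed at 0 to 0.07 FPKM. Reads from these overlaps cannot be told apart from those of Acot4.

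The genes next to the cluster on chromosome 12 were not called. Within 300 kb on either side of the cluster, 12 genes outside it were tested, and none was called in any of the 4 pairwise comparisons. Their log2 fold changes lay between -0.15 and 0.16 for iKO against WT on chow and between -0.11 and 0.25 for HFD against chow in iKO. Within the cluster Acot3, a peroxisomal relative and no member of the 8, was called higher in iKO on HFD, from 0.108 FPKM ± 0.0661 on chow to 0.582 ± 0.133 (log2 fold change 0.51, SE 0.084, adjusted p = 0.000464). It too passed the filter mainly through HFD libraries. Of the stretches of read length in the Acot3 transcript, 3.12% occur letter for letter in Acot1, and 4.44% in any other gene of the cluster. Acot1 is far more abundant than Acot3 and rose from 3.04 to 14.9 FPKM in the same comparison. The part of reads from such stretches in the Acot3 values and in its call was not tested. Acot6, the last gene of the cluster, was at 0.918 to 1.04 FPKM on average in the 4 groups and was not called. Acot5, which lies between Acot3 and Acot6, was not analysed here.

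**Figure D4:**
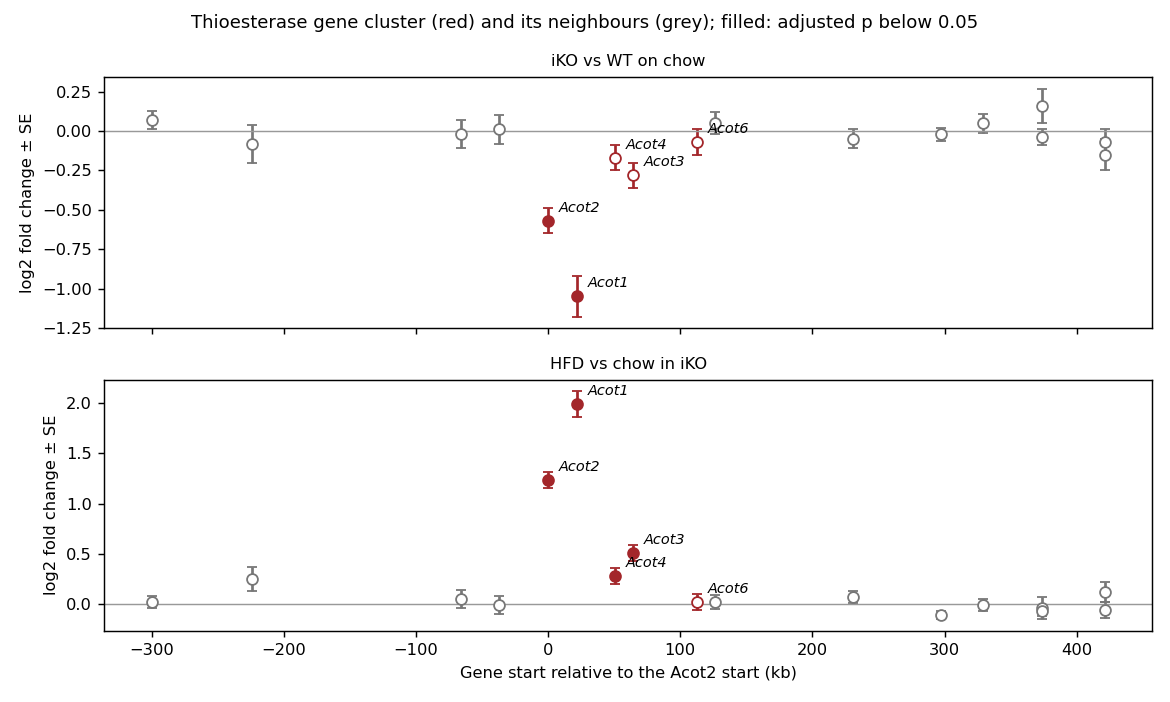
Log2 fold change with SE (vertical axis) of the 5 tested thioesterase genes of the chromosome 12 cluster (red) and of 12 neighbours (grey), by the distance of the gene start from the Acot2 start in kb, for iKO against WT on chow (top) and HFD against chow in iKO (bottom). Filled points have an adjusted p below 0.05. The neighbours lie close to 0 on both sides, and on this scale of log2(FPKM + 1) the change is largest at Acot1 in both panels. The added 1 FPKM shrinks changes of low genes such as Acot3. By ratio of means Acot3 was at 0.309 and Acot1 at 0.419 for iKO against WT on chow. For HFD against chow in iKO they were at 5.39 and 4.91.

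The promoter stretches of Acot2, Acot1 and Acot4, from 250 bases before the start to 50 after it (RefSeq, GRCm38.p6, plus strand), are shown because these genes sit side by side and were the members called on HFD in iKO. Capitals mark CCAAT, a common promoter motif, on either strand (as ATTGG on the reverse), and AGGTCA, the half-site that PPAR and related nuclear receptors bind as a pair, on either strand (as TGACCT on the reverse).
Acot2 promoter, chr12:83987611-83987910: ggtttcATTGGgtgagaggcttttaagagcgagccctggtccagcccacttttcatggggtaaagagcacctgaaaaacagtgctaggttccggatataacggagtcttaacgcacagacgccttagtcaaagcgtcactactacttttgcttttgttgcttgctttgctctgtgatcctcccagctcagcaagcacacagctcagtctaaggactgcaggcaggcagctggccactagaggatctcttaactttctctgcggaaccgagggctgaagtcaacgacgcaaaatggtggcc
Acot1 promoter, chr12:84009252-84009551: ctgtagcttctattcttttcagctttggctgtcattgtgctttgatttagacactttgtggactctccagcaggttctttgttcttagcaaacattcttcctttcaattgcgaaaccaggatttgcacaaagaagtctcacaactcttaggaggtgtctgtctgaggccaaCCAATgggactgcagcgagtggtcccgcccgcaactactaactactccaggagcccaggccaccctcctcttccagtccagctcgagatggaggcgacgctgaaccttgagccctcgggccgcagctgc
Acot4 promoter, chr12:84038129-84038428: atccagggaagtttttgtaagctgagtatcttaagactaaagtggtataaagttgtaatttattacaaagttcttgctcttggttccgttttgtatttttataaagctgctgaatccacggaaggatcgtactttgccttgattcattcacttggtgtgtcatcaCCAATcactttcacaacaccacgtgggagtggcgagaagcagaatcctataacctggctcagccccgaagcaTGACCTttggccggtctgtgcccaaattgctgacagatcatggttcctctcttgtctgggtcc
CCAAT occurred in all 3 of these windows, as in 37.4% of all 32851 promoter windows of that length. AGGTCA occurred in the Acot4 window, and in 16.3% of all windows. The paired form known as DR1, AGGTCANAGGTCA searched without mismatches on both strands, was in none of the windows of the 7 members that matched the table and in 0.0396% of all windows. DR1 contains AGGTCA, so a window with the pair counts for both motifs. The absence of these letters from a window of this length says only that they are not there.

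The other 5 members were called in no comparison. Acot13 (chr13:24817948-24831540, minus strand), a small enzyme of the hotdog fold found at mitochondria and in the cytosol and also called Them2, was by far the most abundant. Its mean was 275 FPKM ± 3.77 in WT and 259 ± 11.6 in iKO on chow, and 258 ± 20.3 and 240 ± 8.21 on HFD (SD, n = 5). That was 78.5% of the summed FPKM of the 8 members in the WT chow group and 71.8% in the iKO HFD group. In iKO the chow libraries held 277.54, 250.53, 262.59, 256.34 and 248.8 FPKM of Acot13. The HFD libraries of iKO held 247.71, 229.06, 232.62, 245.23 and 243.14, all below chow, as did 6.41% of all tested genes. The log2 fold change there was -0.11 (SE 0.045, adjusted p = 0.12), beside a median of -0.072 over all tested genes. It was called with values rescaled to a common sum (-0.13, adjusted p = 0.0429) and without WT HFD library RT19 (-0.11, adjusted p = 0.0411). These were the 2 calls among 30 alternatives, over which it ranged from -0.13 to -0.01, with limma adjusted p up to 0.952. In WT the diet difference was -0.093 (SE 0.045, adjusted p = 0.203). Without WT HFD library RT19, which held 292.78 FPKM while the other 4 of its group held 243.42 to 258.03, it was -0.14 at an adjusted p of 0.0275, and with library quality weights -0.12 at 0.0253. With median-of-ratios scaling, which removes the shift of all genes, the difference in WT was 0.011.

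Acot7 (chr4:152178134-152271855, plus strand) is a long-chain thioesterase of the cytosol, best known from brain. It was the most abundant member after Acot13 on chow, at 25 FPKM ± 0.798 in WT and 27 ± 3.7 in iKO, and it stood below Acot2 on HFD, at 23.5 ± 1.83 and 23 ± 0.97 (SD, n = 5). In iKO on chow the libraries held 25.47, 27.44, 26.49, 32.92 and 22.89 FPKM of Acot7, so that RT7 stood above the other 4. The diet difference in iKO was -0.21 (SE 0.069, adjusted p = 0.0516) and was not called. It was -0.27 at an adjusted p of 0.0115 without RT9, and -0.24 at 0.0489 with values rescaled to a common sum. In all, 5 of 30 alternatives called it, and it ranged over them from -0.27 to -0.12, with limma adjusted p up to 0.364. In WT the diet difference was -0.09 (SE 0.069, adjusted p = 0.421). Acot7 was listed with 6 transcripts, whose levels are not separated in these values.

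Acot9 (chrX:155262443-155297654, plus strand) is a mitochondrial enzyme that acts on short and long acyl-CoA. Its group means lay between 11.4 and 13 FPKM. The diet difference in iKO was -0.17 (SE 0.061, adjusted p = 0.0843), and it was called without RT9 (-0.21, adjusted p = 0.0222) and without RT17 (-0.21, adjusted p = 0.0346). These were the 2 calls of Acot9 among 30 alternatives, which ranged from -0.21 to -0.07, with limma adjusted p up to 0.6. No comparison called Acot9 with all libraries. Its near copy Acot10 was not analysed here, and reads from that gene could count for Acot9.

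Acot11 (chr4:106744555-106804998, minus strand), also called Them1, is a long-chain enzyme with a lipid-binding START domain, known from brown fat. Its group means lay between 4.34 and 4.83 FPKM, and its 95% intervals spanned 0 in all 4 pairwise comparisons, for example from -0.27 to 0.11 between the genotypes on HFD. Acot8 (chr2:164792765-164804882, minus strand), a peroxisomal enzyme with a broad choice of substrates, had group means between 3.8 and 4.22 FPKM. Its intervals spanned 0 as well, from -0.26 to 0.15 for the diet in iKO and from -0.08 to 0.33 in WT. Acot8 overlaps Snx21 on the opposite strand over 1052 bases, and Snx21 was at 7.26 to 12.2 FPKM. No source used here says that strand was used in counting, so reads from that overlap cannot be told apart.

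The order of the members changed with the diet. In WT on chow it was Acot13, Acot7, Acot2, Acot9, Acot1, Acot11, Acot8 and Acot4. Acot7 and Acot2 overlapped there, with Acot7 higher in 4 of 5 libraries, and so did Acot11 and Acot8. In iKO on chow Acot1 had rank 7, below Acot8, which was higher in 4 of 5 libraries. On HFD Acot2 had rank 2 and Acot1 rank 4 in both genotypes. Acot2 was above Acot7 in all 5 libraries of each HFD group without overlap, while Acot1 and Acot9 overlapped in iKO. Acot2 made up 4.47% of the summed FPKM of the members in iKO on chow and 10.7% on HFD, and Acot1 0.935% and 4.48%.

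By compartment, the members of the cytosol (Acot1, Acot7 and Acot11) summed to 36.9 FPKM ± 0.9 in WT and 34.4 ± 3.69 in iKO on chow, and to 45.2 ± 3.54 and 42.5 ± 2.8 on HFD (SD, n = 5). The peroxisomal members Acot4 and Acot8 summed to 4.24 ± 0.55 and 4.39 ± 0.787 on chow and 4.75 ± 0.488 and 4.44 ± 0.328 on HFD. The mitochondrial sum was set by Acot13, at 309 ± 3.58 and 287 ± 12 on chow and 307 ± 21.2 and 287 ± 11.5 on HFD. Without Acot13, the mitochondrial pair Acot2 and Acot9 summed to 34.3 ± 1.91 and 27.5 ± 0.719 on chow and to 49 ± 3.52 and 47.2 ± 3.86 on HFD. Both the cytosolic and this mitochondrial sum thus held 1 gene that rose with HFD beside others that did not. These sums are descriptions and were not tested.

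Over the 20 libraries, the log2(FPKM + 1) of Acot1 and Acot2 correlated at r = 0.98, and at 0.69 after each group was centred on its mean. The points share 4 group means, so the first value mostly restates the differences between groups. Acot4 correlated at 0.69 with each of both, and at 0.06 and 0.10 after centring. Of all tested genes, the 5 most like Acot1 were Acot2 (r = 0.983), Chrna2 (0.978), Lpcat3 (0.966), Acadl (0.965) and Ephx2 (0.962). Acadl encodes long-chain acyl-CoA dehydrogenase, Lpcat3 a lysophospholipid acyltransferase and Ephx2 soluble epoxide hydrolase. The 5 most like Acot2 were Chrna2 (0.985), Acot1 (0.983), Slc25a20 (0.963), Impa2 (0.958) and Pdk4 (0.956). Slc25a20 is the carnitine-acylcarnitine carrier and Pdk4 a kinase that inhibits pyruvate dehydrogenase. After centring, the correlation with Acot2 was 0.82 for Chrna2, a nicotinic receptor subunit at 0.234 to 1.6 FPKM on average per group, and 0.77 for Pdk4. It was lower for Slc25a20 (0.56) and Impa2 (0.42). With Acot1 it was 0.70 for Chrna2, 0.62 for Lpcat3, 0.45 for Acadl and 0.30 for Ephx2.

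Genes of the steps around the thioesterases were counted from lists. Of all tested genes, 0.720% were called lower in iKO on chow and 0.0705% lower in iKO on HFD. With HFD, 0.767% were called higher in WT and 1.65% in iKO. Of 13 tested acyl-CoA synthetase genes, which make the thioesterases' substrates, 2 were called lower in iKO on chow, Acsf2 (log2 fold change -0.59, SE 0.082, adjusted p = 0.000194) and Acsl1 (-0.28, SE 0.048, adjusted p = 0.00214). None was called between the diets in WT, and 4 were higher on HFD in iKO, namely Acsl1 (0.35), Acsf2 (0.56), Slc27a1 (0.30) and Acsm5 (0.52). Acsl1, the main long-chain synthetase of the heart, went from 194 FPKM ± 8.74 to 246 ± 10.2 there. Of 12 tested genes of CoA synthesis and breakdown, Pank1, a pantothenate kinase at the first step of CoA synthesis, was the 1 called on chow, from 17.1 ± 1.23 in WT to 12.8 ± 1.11 in iKO. On HFD in iKO Pank1 rose to 16.8 ± 1.32, and Slc25a42, the mitochondrial CoA carrier, from 17.6 ± 1.93 to 22.7 ± 2.27. No gene of these 2 lists was called between the genotypes on HFD, and their medians lay between -0.043 and 0.077 in the 4 pairwise comparisons.

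Of 10 acyl-CoA binding and transfer genes, 3 were called lower in iKO on chow, which were Fabp3, which binds fatty acids in heart muscle (-0.40), Dbi, the acyl-CoA binding protein (-0.30), and Scp2, a sterol carrier protein (-0.22). Dbi was the 1 called on HFD between genotypes, from 180 FPKM ± 15.3 in WT to 149 ± 10.4 in iKO (log2 fold change -0.27, SE 0.054, adjusted p = 0.0343). With HFD, Dbi and Fabp3 rose in WT (0.52 and 0.30), and Dbi, Fabp3 and Fabp4 in iKO (0.56, 0.52 and 0.36). The medians of this list lay between -0.059 and 0.017. Of 20 tested PPAR-alpha target genes other than the thioesterases, 14 were called lower in iKO on chow (median log2 fold change -0.32), 2 on HFD (-0.096), 15 higher with HFD in WT (0.25) and 19 in iKO (0.51). The shares of all tested genes called in these directions were 0.720%, 0.0705%, 0.767% and 1.65%. Examples are Decr1, a reductase of unsaturated fatty acid oxidation, at 161 ± 2.63 and 111 ± 4.99 FPKM in WT and iKO on chow, and Slc25a20 at 101 ± 5.11 on chow and 133 ± 7.48 on HFD in WT. The list shares Fabp3 with the one before it. Of 6 tested other thioesterases, Acot3 was the 1 called, while Acot6, Them4, Hibch, Ppt1 and Ppt2 were called in no comparison, and the medians of the list lay between -0.072 and 0.013 in the pairwise comparisons.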

How the data were processed

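FPKM per gene, printed to 2 decimals in 1 table per library, were made and deposited by the authors. Tools named, per the submitters' processing notes, were RSEM, Bowtie2 and DESeq2 (no versions), with mm9 as the build. The gene IDs are of a later annotation, 24938 of 25052 being in GENCODE M21, so coordinates are given on GRCm38 by ID. Each library is 1 mouse, per the labels. Log2(FPKM + 1), a scale that understates changes of low genes, was used, and limma 3.58.1 in R 4.3.3 (intensity trend, robust moderation) was fitted to 4 group means over all 20 libraries. The limma fit was tested on simulated data. Acot1 less Acot2 was tested by exact permutation over mice. Depth was estimated from short genes with 1 transcript (130 to 450 nt), where 50% to 71.6% of values were whole to within 0.05 reads, so whole reads were not recovered. No 2 libraries were identical, and libraries correlated at 0.99 to 0.997. Annotated transcripts of GENCODE M21 gave the shared stretches, and Python 3.11.15 with pandas 2.3.3 and matplotlib 3.10.9 was used. Named genes are the 8 members, up to 4 called genes of each list per comparison by smallest p (a part is named), the 5 genes most like Acot1 and Acot2, and Acacb. Named outside that rule are Snx21, Gm49366 and 4732463B04Rik, which overlap members, and the markers Ucp1 and Cidea. So are the remaining thioesterases Acot5, Acot6, Acot10, Them4, Hibch, Ppt1 and Ppt2. The members and lists were chosen with earlier results of these data known. Alternatives were other scalings, pseudocounts, filters and fits, and each library left out.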

Additional observations from a re-analysis of the deposited data

Results flagged for a closer look

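Among 32 sets of 5 values (8 members in 4 groups), 1 library stood apart from its group by Dixon's criterion of 0.71. It was the iKO HFD library RT15, which held 0.5 FPKM of Acot4 while the other 4 held 0.55 to 0.57, a gap of 0.714 of the group's range. Chance flags about 1 in 20 groups. The gap is 0.05 FPKM in values printed to 2 decimals.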

How the results depend on the processing

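Acot1 and Acot2 were called in each of the 31 alternatives run (their sum counted for both) for iKO against WT on chow and for HFD against chow in either genotype, with log2 fold changes from -1.26 to -0.71 and -0.71 to -0.53 on chow, 0.87 to 1.25 and 0.68 to 0.88 for the diet in WT, and 1.47 to 2.28 and 1.18 to 1.47 for the diet in iKO. With both genes summed to 1, the members called were 1 instead of 2 on chow and for the diet in WT, by construction. For the diet in iKO, 5 instead of 3 were called with values rescaled to a common sum, and the count ranged from 2 to 5 when single libraries were left out (5 without RT9 or RT19). For Acot1 less Acot2 between the genotypes on HFD, leaving out single libraries gave -0.14 to -0.069. Counts over all genes moved more. On HFD the 22 genes called between genotypes ranged from 5 to 95 over other settings (79 with upper-quartile scaling, 95 with quality weights) and from 6 (without RT12) to 39 (without RT11). The 98 called higher with HFD in WT became 178 with median-of-ratios, 316 with upper-quartile scaling and 235 with quality weights, and the 211 in iKO became 325 with median-of-ratios and 333 with upper-quartile scaling. The 929 and 1068 called lower fell to 159 and 244 with median-of-ratios and to 111 and 201 with upper-quartile scaling. The 4 of the interaction ranged from 0 to 5. No paired analysis was possible because the groups share no replicate numbers.

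The values that changed sign were all of uncalled differences, and the cause was not tested. For iKO against WT on chow, Acot8 was -0.042 without RT1 and RT4, and -0.0038 to 0.15 over single libraries left out. For iKO against WT on HFD, Acot9 was -0.064 with median-of-ratios and -0.085 with upper-quartile scaling, Acot4 -0.0012 with upper-quartile scaling and -0.015 with quality weights, and over single libraries Acot9 ranged from -0.036 to 0.033, Acot4 from -0.012 to 0.11 and Acot7 from -0.070 to 0.0035. For the diet in WT, Acot7, Acot9 and Acot13 were 0.0097, 0.012 and 0.011 with median-of-ratios and 0.044, 0.045 and 0.047 with upper-quartile scaling, and Acot11 ranged from -0.020 to 0.081 over single libraries. For the diet in iKO, Acot8 was 0.018 with median-of-ratios scaling, 0.029 with upper-quartile scaling and 0.037 without RT1 and RT4, and over single libraries Acot8 ranged from -0.10 to 0.037 and Acot11 from -0.015 to 0.089. For the interaction, Acot11 was -0.010 with median-of-ratios scaling, -0.028 with upper-quartile scaling and -0.0069 with quality weights, and over single libraries Acot11 ranged from -0.057 to 0.068 and Acot13 from -0.040 to 0.026. The median of all genes for the diet was -0.084 in WT and -0.072 in iKO, -0.11 and -0.093 with the common sum, and within 0.0036 of 0 with median-of-ratios scaling. At this depth Acot4, under 1 FPKM, rests on low values.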
